A study of Mus musculus with 4 samples.

Results

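The pyruvate dehydrogenase complex was followed here through 10 genes in kidneys of embryos whose mothers ate enough or too little iron. The genes encode the 4 kinases that switch the complex off (Pdk1, Pdk2, Pdk3 and Pdk4), the 2 phosphatases that switch it back on (Pdp1 and Pdp2), its catalytic subunits (Pdha1, Pdhb and Dlat) and Idh3a, a subunit of a citric acid cycle enzyme. On the Mouse Genome 430 2.0 array they were taken as every probe set, a group of short probes against a transcript, that the platform annotation gives exactly 1 symbol and that symbol among the 10 names. That gave 21 of the 45101 probe sets, of which 20 were bright enough to be tested. The genes were selected on the signal differences between these diets as well as on their role, so those differences are given as a description and not as tests.

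All 4 samples were RNA from kidneys of C57BL/6 embryos at embryonic day 15, when nephrons form while the collecting system branches. The control dams ate a diet with 220 ppm iron, and the iron-deficient dams a synthetic diet with 2 to 6 ppm. The females were 8 weeks old when divided and ate their diets from 3 weeks before gestation, through mating with C57BL/6 males and pregnancy. Each diet had 2 pools of 16 kidneys, with 1 array per pool, and separate litters are not stated, so errors and p-values describe how far these particular pools differed, possibly for technical reasons. A kidney pool mixes all renal cell types, and fewer cells of a type cannot be told apart from less RNA per cell.

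Pyruvate made by glycolysis enters the mitochondrion, where the pyruvate dehydrogenase complex turns it into acetyl-CoA for the citric acid cycle. Kinases of the Pdk family phosphorylate the alpha subunit of the complex and stop it, which leaves pyruvate for lactate, and Pdp phosphatases remove the phosphate. Pdk1 is a textbook target of hypoxia-inducible factor, whose hydroxylases need both oxygen and iron, while Pdk4 is known for its response to fasting and fatty acids. Tubule cells of the mature kidney depend heavily on mitochondrial oxidation.

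Iron-deficient pool 1 was unlike the other arrays. Its log2 signals correlated across probe sets at 0.883 to 0.913 with those of the other arrays, which correlated at 0.970 to 0.978 among themselves (probe sets are not independent replicates). Its 18S ribosomal RNA control probe set at the 5′ end read 2144.5, against 243 to 291.9 on the others. The labels give female for every sample, yet the Y-linked Eif2s3y read 594.5 and 600 in the controls against 253.6 and 20.8 under iron deficiency, and Xist, expressed from the inactive X, read 926.6 and 167.8 against 3427.3 and 1543.3. Of kidney markers, 8 of 8 for nephron progenitors, 7 of 8 ureteric and 8 of 8 stromal were bright enough, on the mean over the arrays, to be tested. Over the single pools the progenitor markers summed to 2428.4 to 3552.4 and the ureteric markers to 4948.6 to 6238.2. Such values do not show that a pool was free of other tissue. Because pool 1 stood apart, the differences of the 10 genes are also given without it. Such values rest on iron-deficient pool 2 alone, which differed from the controls in its own ways. Its muscle marker sum was 3695.2 against 862.8 to 939.1 in the controls, and its liver marker sum 3287.5 against 1591.8 to 1777.6. The sex-linked signals differed between diets, and their part in the X-linked Pdk3 and Pdha1 was not tested.

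The promoters of the 4 kinases are shown because the kinases, which act on the same subunit, did not share a direction between diets. Each line is the 250 bases before the annotated start of transcription, 5′ to 3′ on the gene's own strand, from RefSeq on GRCm38.p6. Capitals mark ACGTG or GCGTG on either strand, the core letters bound by hypoxia-inducible factor. A CACGTG match holds ACGTG on both strands.

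Pdk1, chr2:71872974-71873223, plus strand: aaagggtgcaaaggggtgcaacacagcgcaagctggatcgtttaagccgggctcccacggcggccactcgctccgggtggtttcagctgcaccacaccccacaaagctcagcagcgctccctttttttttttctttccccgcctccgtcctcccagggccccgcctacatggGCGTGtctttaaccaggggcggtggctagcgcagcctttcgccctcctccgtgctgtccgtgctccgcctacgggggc

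Pdk2, chr11:95041372-95041621, minus strand: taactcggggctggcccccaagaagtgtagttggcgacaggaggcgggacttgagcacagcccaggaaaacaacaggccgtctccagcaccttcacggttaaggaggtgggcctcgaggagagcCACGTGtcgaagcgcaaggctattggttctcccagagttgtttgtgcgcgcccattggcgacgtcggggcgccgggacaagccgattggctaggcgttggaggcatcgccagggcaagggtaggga

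Pdk3, chrX:93832151-93832400, minus strand: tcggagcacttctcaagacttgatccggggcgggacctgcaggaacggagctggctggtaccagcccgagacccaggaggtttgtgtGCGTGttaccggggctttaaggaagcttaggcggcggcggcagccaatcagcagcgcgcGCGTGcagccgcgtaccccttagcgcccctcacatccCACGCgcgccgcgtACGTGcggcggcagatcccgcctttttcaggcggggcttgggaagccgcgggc

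Pdk4, chr6:5496279-5496528, minus strand: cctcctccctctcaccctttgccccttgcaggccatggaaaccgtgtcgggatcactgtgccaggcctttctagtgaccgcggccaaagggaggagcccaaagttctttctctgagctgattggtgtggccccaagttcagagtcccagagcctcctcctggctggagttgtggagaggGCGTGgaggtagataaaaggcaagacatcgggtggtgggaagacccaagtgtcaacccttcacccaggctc

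Of the 10 genes, 8 had a promoter in the RefSeq table, with 10 promoters in all. At least 1 of the core letters ACGTG or GCGTG stood in the upstream window of 7 of these 8 genes, against 38.6% of all 32851 promoters, and Dlat held neither. The 7 of 8 is counted by gene, where any of its promoters sufficed, and the 38.6% by promoter. ACGTG was found in 16.6% of all promoters, GCGTG in 28.2% and CACGTG in 6.02%. The first promoters of these genes held 58.8% to 67.6% G or C, where the median of all promoters was 52.4%, so the shares do not compare like with like. Pdk1, whose signal was higher in both iron-deficient pools, held GCGTG at bases -78 to -74, and a further GCGTG spans its start site from base -2 to 3. Pdk4, also higher in both, held GCGTG at -71 to -67. Pdk3, whose pools overlapped, held the most, with GCGTG at -163, -104 and -67 and ACGTG at -53. Pdk2, lower in both pools though only slightly in pool 2, held a CACGTG whose ACGTG matches run from -126 to -121. The second annotated starts of Pdk1 and Pdk2 held none of these letters. Whether the letters bear on the kinase signals was not tested, and a match in a promoter is a description and not a site of binding.

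The question put to the 10 genes was whether the transcripts for switching the complex off, switching it on and building it differed between the diets. Pdk1 was higher in both iron-deficient pools on all 4 of its probe sets, by 2.38-fold to 12.4-fold, and Pdk4 was 1.99-fold higher. Pdk2 was lower in both, at 0.55 of control, and Pdk3 overlapped between diets. Much of the Pdk4 and Pdk2 differences came from iron-deficient pool 1, and without it their log2 differences were 0.45 and -0.16. The Pdp1 probe sets went opposite ways, with log2 differences of 0.86 and -0.86, and Pdp2 overlapped (0.09). Pdha1 and Pdhb, which form the catalytic core that the kinases act on, lay within the spread of the pools on their brightest probe sets. The dimmer Pdhb probe set was lower in both iron-deficient pools (-0.42). So was the dimmest Dlat probe set (-0.66), while the others of Dlat overlapped. Idh3a was lower in both iron-deficient pools on all 3 of its tested probe sets, at 0.575 to 0.652 of control.

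Of the 20 tested probe sets, 13 had diets that did not overlap, 6 with the higher signals under iron deficiency and 7 with the lower. Over all 27022 tested probe sets 36.7% did not overlap, 11.8% higher and 25.0% lower. Centring each array on its median moved the median difference of all probe sets from -0.103 to 0.0935 and turned that split to 21.7% higher and 14.9% lower, with 7 higher and 6 lower among the 20. No probe set of the 10 genes passed an adjusted p of 0.05 by limma with Benjamini-Hochberg adjustment over all tested probe sets, where 0% of all probe sets passed, and at an unadjusted p under 0.05 lay 5 higher and 1 lower, against 1.14% and 2.81% of all, or 3.96% in either direction. Because the genes were picked with this contrast known, nothing is read from these counts. The median log2 difference, iron-deficient minus control, was -0.10 for the 20 probe sets and -0.10 for all. With 2 pools against 2, an exact two-sided permutation test of a single probe set cannot go below p = 0.333.

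**Figure D1:**
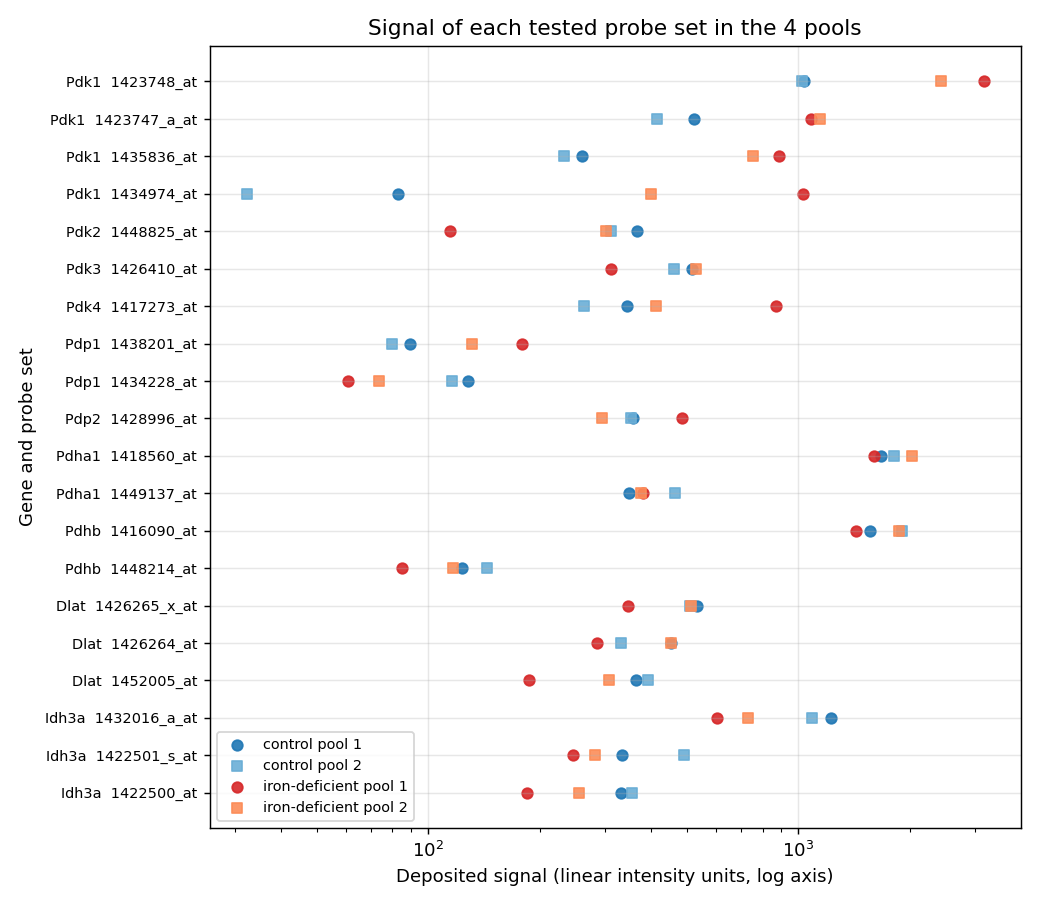
Deposited signal, in linear intensity units on a log axis, of the 20 tested probe sets in each of the 4 pools, with 1 row per probe set and 1 point per pool. The red and orange points of the iron-deficient pools lie to the right of both blue control points for the 4 Pdk1 probe sets, Pdk4 and 1 Pdp1 probe set, and to the left for the 3 Idh3a probe sets; levels of different rows are not comparable, since probes differ in brightness.

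Pdk1 encodes the kinase of the family best known from cells short of oxygen. Its brightest probe set, 1423748_at, read 1035.7 and 1024.5 in the controls against 3165.2 and 2422 under iron deficiency, with pool 1 of each diet first here and throughout. The means were 1030.1 ± 7.92 and 2793.6 ± 525.5 (SD, n = 2 each), a log2 difference of 1.43 ± 0.33 (SE of the limma fit). The control pools nearly coincided, and both iron-deficient pools lay far above them.

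The other Pdk1 probe sets went the same way. Probe set 1435836_at read 261 and 232.5 in the controls against 888.7 and 753.4 under iron deficiency (1.73 ± 0.32). Probe set 1423747_a_at, whose suffix marks probes shared by transcript forms of the same gene, read 523.2 and 416.2 against 1079.4 and 1147 (1.25 ± 0.32), and here iron-deficient pool 2 was the higher one. On these 3 probe sets the iron-deficient pools differed from each other by 0.09 to 0.39 on the log2 scale, less than either differed from the control mean.

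The dimmest Pdk1 probe set, 1434974_at, differed most. It read 82.9 and 32.3 in the controls against 1028.8 and 398.6 under iron deficiency, a log2 difference of 3.63 ± 0.66 and a ratio of 12.4. It stood at place 7 from the top among all 27022 tested probe sets by size of difference, where the other Pdk1 probe sets stood at places 177, 373 and 570. Its pools also spread most, by 1.36 on the log2 scale between the control pools and by 1.37 between the iron-deficient pools. The probe sets of Pdk1 therefore share their direction but not its size. Without iron-deficient pool 1 the 4 differences were 1.23, 1.30, 1.61 and 2.95 from the brightest to the dimmest probe set, and under quantile normalization they were 1.32, 1.33, 1.85 and 3.61.

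Pdk4, the kinase induced by fasting in many tissues, had 1 probe set. It read 343.3 and 263.6 in the controls against 868.8 and 411.9 under iron deficiency, with means of 303.4 ± 56.4 and 640.4 ± 323.1 (SD, n = 2 each) and a log2 difference of 0.99 ± 0.46. The groups did not overlap, but the iron-deficient pools were 1.08 apart on the log2 scale, more than the difference between diets. Without iron-deficient pool 1 the difference was 0.45, and without iron-deficient pool 2 it was 1.53.

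Pdk2, the most widely expressed kinase of the family, read 367.4 and 311.7 in the controls against 114.7 and 301.9 under iron deficiency. The means were 339.6 ± 39.4 and 208.3 ± 132.4 (SD, n = 2 each), a log2 difference of -0.86 ± 0.53. Iron-deficient pool 2 lay only just below control pool 2, and the low value came from pool 1. Without iron-deficient pool 1 the difference was -0.16, and without iron-deficient pool 2 it was -1.56. Pdk3, whose gene lies on the X chromosome, read 515.4 and 462.5 against 310.8 and 527.6 (-0.27 ± 0.39), with iron-deficient pool 2 above both control pools and pool 1 below both. Without pool 1 its difference was 0.11.

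**Figure D2:**
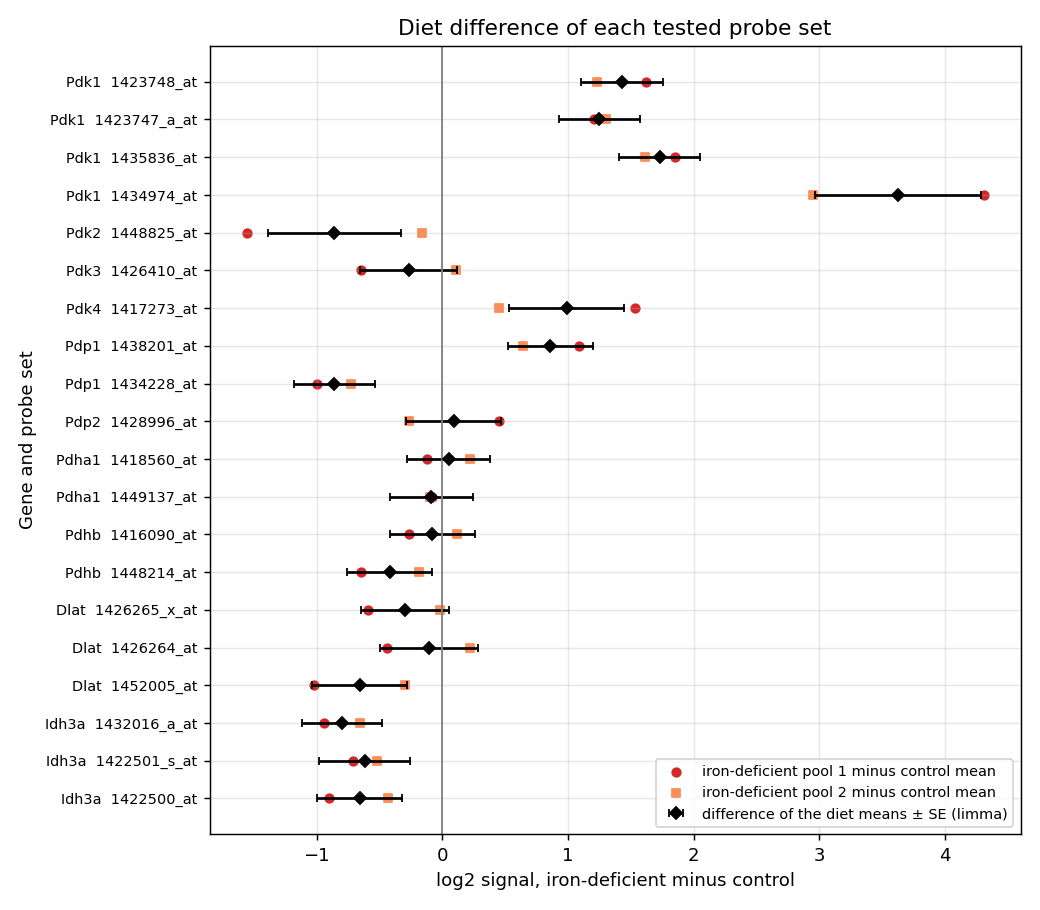
Log2 difference of each of the 20 tested probe sets, iron-deficient minus control, as the difference of means with its SE from limma (black diamonds and bars) and as each iron-deficient pool minus the control mean (red circles for pool 1, orange squares for pool 2). The 4 Pdk1 probe sets lie from 1.25 to 3.63, the 2 Pdp1 probe sets lie on opposite sides of 0 at 0.86 and -0.86, and for Pdk2 pool 1 and pool 2 lie at -1.56 and -0.16.

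The phosphatases undo what the kinases do. Pdp1, a calcium-sensitive phosphatase, had a pair of probe sets that disagreed. Probe set 1438201_at read 89.2 and 80 in the controls against 179.4 and 131.4 under iron deficiency (0.86 ± 0.34). Probe set 1434228_at read 128 and 116.1 in the controls against 60.9 and 73.7 under iron deficiency (-0.86 ± 0.32). In both the diets did not overlap and all 4 signals were above background, so no direction can be given for Pdp1 as a gene. The opposite signs held under quantile normalization (1.03 and -0.75), after median centring (1.06 and -0.67) and without iron-deficient pool 1 (0.64 and -0.73). Which transcript forms the probe sets measure was not analysed here. Pdp2, the other phosphatase, read 358.2 and 353 in the controls against 485.2 and 294.2 under iron deficiency (0.09 ± 0.38). Its iron-deficient pools lay on either side of the control pools, and its difference was -0.27 without pool 1.

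Pdha1, on the X chromosome, encodes the alpha subunit that carries the phosphorylation sites. Its brighter probe set, 1418560_at, read 1667.3 and 1816.4 in the controls against 1601 and 2021.1 under iron deficiency (0.05 ± 0.33, with a sign that turned to -0.07 under quantile normalization). Its dimmer probe set read 348.4 and 465.2 against 380.5 and 375.5 (-0.09 ± 0.33, turning to 0.08 under quantile normalization and 0.11 after median centring). Both overlapped between diets. With an SE of 0.33, equality is not shown. Without iron-deficient pool 1 the brighter and dimmer probe sets differed by 0.22 and -0.10.

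Pdhb, the beta subunit of the same catalytic unit, read 1565.3 and 1901.9 in the controls against 1426.7 and 1872.9 under iron deficiency on its brighter probe set (-0.08 ± 0.34, turning to 0.12 after median centring). Its dimmer probe set, 1448214_at, read 123.3 and 144.3 against 85 and 116.7 (-0.42 ± 0.34), lower in both pools. The values were 0.12 and -0.19 without iron-deficient pool 1.

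Dlat encodes the acetyltransferase that passes the acetyl group on to coenzyme A. Its 3 probe sets differed by -0.30 ± 0.35, -0.11 ± 0.39 and -0.66 ± 0.38 from the brightest to the dimmest. The last of these, 1452005_at, was the only Dlat probe set with diets that did not overlap, at 365.3 and 393.3 in the controls against 186.8 and 308.1 under iron deficiency. Without pool 1 the 3 values were -0.02, 0.22 and -0.30. In all 3 the lowest signal was that of iron-deficient pool 1.

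Idh3a encodes the catalytic alpha subunit of the NAD-dependent isocitrate dehydrogenase, a regulated step of the citric acid cycle. Its brightest probe set, 1432016_a_at, read 1224 and 1087.5 in the controls against 601.5 and 732.4 under iron deficiency. The means were 1155.8 ± 96.5 and 667 ± 92.6 (SD, n = 2 each), a log2 difference of -0.80 ± 0.32, and the diets stood well apart.

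Probe set 1422500_at of Idh3a read 332.4 and 355.2 in the controls against 184.5 and 254.8 under iron deficiency (-0.66 ± 0.34). Probe set 1422501_s_at, whose suffix marks probes that can match transcripts of more than 1 gene, read 333.8 and 489.4 against 246.6 and 282 (-0.62 ± 0.36). The fourth, 1447701_x_at, read 0.3 to 0.7 in all pools, was not above background on any array and was not tested. Without iron-deficient pool 1 the 3 tested differences were -0.66, -0.43 and -0.52 in the order given.

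The other enzymes of the citric acid cycle gave a setting for Idh3a. Of 16 tested cycle genes besides Idh3a, each by its brightest probe set, none was lower in both iron-deficient pools, 1 (Idh3g) was higher in both and 15 overlapped, where 25.0% of all tested probe sets were lower in both and 11.8% higher. Their median log2 difference was -0.12, which turned to 0.08 after median centring but to -0.26 under quantile normalization. On the deposited scale, in iron-deficient pool 2 these 16 genes lay between 0.02 and 0.24 above their control means on the log2 scale, where Idh3a lay at -0.66. In pool 1 they lay between -1.85 and 0.23, with 11 of 16 below both control pools, and Idh3a lay at -0.94 within that range. Idh3g and Idh3b encode the partner subunits of the same enzyme. Idh3g, a regulatory subunit, read 2225.2 and 2473.7 in the controls against 2745.4 and 2719 under iron deficiency (0.22 ± 0.31), and its other probe set differed by 0.19 ± 0.32. Idh3b, named after its values were seen, read 2063.9 and 2373.6 against 1934.2 and 2533.8 on its brightest probe set (0.00 ± 0.34), and the next differed by 0.05 ± 0.35. Under quantile normalization Idh3g differed by 0.01, Idh3b by -0.17 and Idh3a by -0.76. The difference between Idh3a and its partner subunits was not tested, because Idh3a was chosen for its value.

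**Figure D3:**
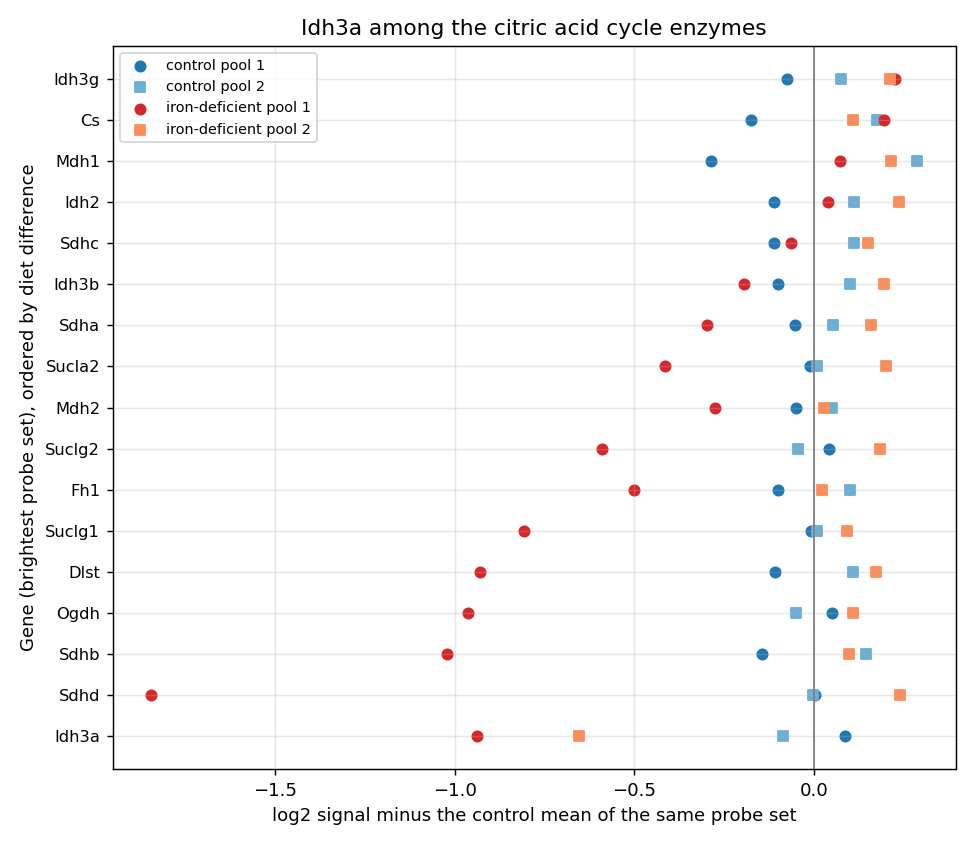
Log2 signal of each pool minus the control mean of the same probe set, for Idh3a and 16 other citric acid cycle genes by their brightest probe sets, ordered by diet difference, with 1 point per pool. In iron-deficient pool 2 (orange squares) the other genes lie from 0.02 to 0.24 and Idh3a lies at -0.66, while in pool 1 (red circles) many genes lie to the left.

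Of the parts of the complex outside the 10 genes, Dld, the dihydrolipoamide dehydrogenase that the complex shares with its relatives, read 539.5 and 552.6 in the controls against 284.9 and 457.8 under iron deficiency (-0.60 ± 0.37). Pdhx, which anchors that enzyme in the complex, read 253.9 and 280.1 against 164.1 and 208.2 (-0.53 ± 0.33). Both were lower in both pools, with differences of -0.25 and -0.36 without iron-deficient pool 1. Pdpr, the regulatory subunit of the phosphatase, read 361.2 and 323.2 against 114 and 326.6 (-0.82 ± 0.55) and overlapped, since iron-deficient pool 2 lay between the control pools. Pdha2, the testis form of the alpha subunit, was not above background in any pool.

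The pathway lists hold genes by role, each by its brightest probe set, and none of their genes passed over all tested probe sets. Each count of separated genes below stands beside 11.8% higher and 25.0% lower over all tested probe sets. Median centring turned these shares to 21.7% and 14.9%, but the lists were not recounted after it, so those shares are not on the lists' scale. Among enzymes that attach lipoic acid and related dehydrogenase complexes, 1 of 11 tested genes was higher under iron deficiency and 3 were lower, with a median log2 difference of -0.38. These shares are near those of all probe sets. Those lower were Dbt (-0.39 ± 0.37), Lias, the iron-sulfur enzyme that makes the lipoyl group Dlat carries (-0.38 ± 0.33), and Gcsh (-0.12 ± 0.31, turning to 0.08 after median centring). Dbt differed by -0.74 and Lias by -0.17 without iron-deficient pool 1. The gene higher in both was Ppm1k, a phosphatase of the related branched-chain complex (0.29 ± 0.32).

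Among genes for other fates of pyruvate, 5 of 13 tested had higher signals in both such pools and 4 had lower ones, against 11.8% and 25.0% of all, with a median of -0.11. The lactate exporter Slc16a3 read 291.9 and 328.2 in the controls against 884 and 2055.2 under iron deficiency (2.12 ± 0.48), and the monocarboxylate transporter Slc16a1 read 979.1 and 998.7 against 2738.8 and 1148.5 (0.84 ± 0.49, and 0.22 without iron-deficient pool 1). Pck1, which starts gluconeogenesis from oxaloacetate, read 144.3 and 128.9 against 11.1 and 35.6 (-2.78 ± 0.60), with pool 1 not above background. Pcx, which carboxylates pyruvate to oxaloacetate, differed by -0.76 ± 0.43, and by -0.26 without iron-deficient pool 1. Ldha, which turns pyruvate into lactate, and Mpc1, part of the carrier that brings pyruvate into the mitochondrion, were named after their values were seen. Ldha differed by 0.56 ± 0.34 (0.12 under quantile normalization) and Mpc1 by -0.75 ± 0.42 (-0.27 without iron-deficient pool 1), each with diets that did not overlap.

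Genes that supply or use acetyl-CoA counted 1 higher and 6 lower among 13 tested, against 11.8% and 25.0% of all, with a median of -0.31. Acss1, which makes acetyl-CoA from acetate in mitochondria, read 338.6 and 362.5 in the controls against 173.1 and 191.5 under iron deficiency (-0.94 ± 0.31), while a dimmer probe set overlapped (-0.13 ± 0.34). Cpt2, Hadhb and Crat, of fatty acid oxidation and acyl transfer, differed by -0.69 ± 0.50, -0.61 ± 0.41 and -0.46 ± 0.34. These values were -0.03, -0.15 and -0.22 without iron-deficient pool 1. Other tested probe sets overlapped between diets, at 0.24 for Cpt2, -0.31 and 0.54 for Hadhb and -0.31 for Crat.

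Other genes known to answer to fasting or to PPAR receptors were counted beside Pdk4. Of 11 tested, 1 was higher in both iron-deficient pools (Angptl4, an inhibitor of lipoprotein lipase, 0.45 ± 0.37), 2 were lower (Ehhadh, a peroxisomal oxidation enzyme, -1.22 ± 0.37, and Klf15, -0.66 ± 0.38) and 8 overlapped, with a median of -0.06. These shares lie at or below the 11.8% and 25.0% of all. Angptl4 differed by 0.77 and Klf15 by -0.29 without iron-deficient pool 1. Acot2, a thioesterase named after its values were seen, read 1067.2 and 1207.1 against 2761.5 and 1088.3, with the high value in pool 1. Among known regulators of the kinases 3 of 14 tested were higher and none lower, with a median of 0.07, against 11.8% higher in all. The share of all probe sets was 21.7% after median centring, where this list was not recounted. Foxo3 read 1592.1 and 1845.2 against 4508.7 and 1989.1 (0.81 ± 0.48), Myc differed by 1.11 ± 0.62 and Ppard by 0.40 ± 0.36. For Foxo3 and Myc the high value was that of iron-deficient pool 1, as for Pdk4, and without that pool both differed by 0.21, while Ppard differed by 0.69. The other tested probe sets of Foxo3 disagreed. The next brightest was also higher in both iron-deficient pools (0.74 ± 0.47). The dimmest, near the filter limit of 17.3, read 19.3 and 23.8 in the controls against 18.5 and 17.8 under iron deficiency (-0.24 ± 0.32), lower in both. The direction counted for Foxo3 is that of its brightest probe set only.

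The medians of these lists depended on iron-deficient pool 1. Without it they were 0.11 for lipoylation and related complexes, 0.16 for other fates of pyruvate, 0.17 for the citric acid cycle, 0.03 for acetyl-CoA and 0.03 for fasting and PPAR genes, so these 5 signs turned, while the regulators stood at 0.16. After median centring those for other fates of pyruvate and for fasting genes were 0.08 and 0.14.

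Genes that answer to low oxygen, a list that overlaps results already known for these data, counted 27 of 31 tested with higher signals under iron deficiency and 1 with lower, against 11.8% and 25.0% of all, with a median of 1.13, or 1.26 without iron-deficient pool 1. Of these 31 genes, 8 had a larger difference than the brightest Pdk1 probe set, the largest being Adm, Slc2a3, Slc16a3 and Car9 (2.42 ± 0.42, 2.34 ± 0.51, 2.12 ± 0.48 and 1.81 ± 0.44).

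**Figure D4:**
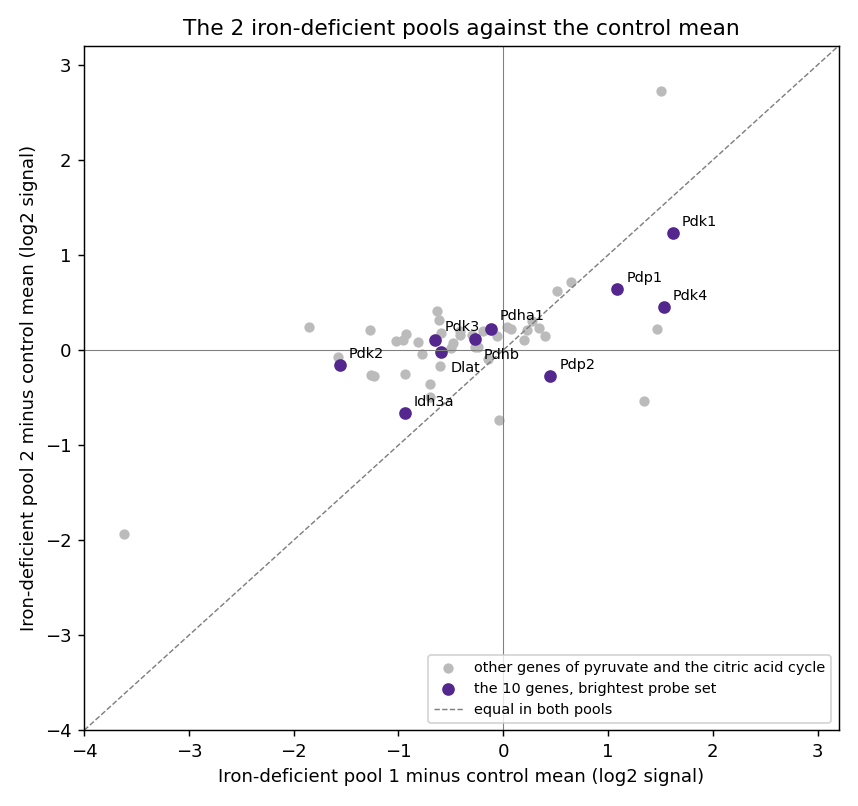
Log2 signal of iron-deficient pool 2 minus the control mean (vertical axis) against that of iron-deficient pool 1 (horizontal axis) for the 10 genes by their brightest probe sets (purple, named) and for other genes of pyruvate handling, lipoylation and the citric acid cycle (grey), with the dashed line marking equal values. Pdk1, Pdk4 and Pdp1 (by that of its disagreeing probe sets with the higher mean over both diets) lie to the upper right. Idh3a lies to the lower left, and Pdk2 lies at -1.56 in pool 1 but at -0.16 in pool 2.

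The iron-deficient pools differed among themselves for these genes. In pool 1, 7 of the 20 probe sets were above both control pools and 12 below both, against 34.9% and 52.6% of all tested probe sets. In pool 2 these counts were 9 and 8, against 31.3% and 40.5%. The median gap between the iron-deficient pools was 0.45 on the log2 scale for the 20 probe sets, and that between the control pools was 0.17, where all tested probe sets had 0.62 and 0.20.

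Markers of other cell types also differed between pools, and their counts stand beside 11.8% higher and 25.0% lower over all tested probe sets. All 18 tested proximal tubule markers, of the nephron segment richest in mitochondria, were lower in both iron-deficient pools, with summed signals of 8445.9 to 8710.2 in the control pools and 2081.1 to 3412.4 in the iron-deficient pools, beside the lower Pdk2 and Idh3a. Erythroid markers were higher for 6 of 9 tested and lower for 1, with sums of 3463.3 to 3826.3 and 7394 to 10022.9, and granulocyte markers were higher for 7 of 8 and lower for 1, with sums of 573.1 to 583.5 and 1912.4 to 2641.1, beside the higher Pdk1. Skeletal muscle markers, of a tissue rich in Pdk4, were higher for 3 of 12 and lower for none. Their sum was 3695.2 in iron-deficient pool 2 but 822.9 in pool 1, the pool with the higher Pdk4, and 862.8 to 939.1 in the control pools. Of 8 tested liver markers none was separated. Their sum was 356.7 in iron-deficient pool 1, the pool with the low Pdk2, against 3287.5 in pool 2 and 1591.8 to 1777.6 in the controls, and Ttr, a liver transport protein, read 12.3 in pool 1 and 472.7 in pool 2. Adipocyte markers were higher for none of 2 tested, with Lep below background in every pool and Adipoq at 2.5 to 8.6, above it in 1. The brightness filter used the mean over both diets, so a marker dim under a diet could pass through the other alone, which favours separation. Mpo, Camp, Ngp and Ctsg read 3.8 to 14.8 in the controls, under the filter limit of 17.3. Myod1 and Myog read 10.3 to 16.7 there, and Slc17a1 and Miox read 7.2 to 14.3 under iron deficiency. The part of these cell types in the results was not tested.

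By distance between log2 profiles over the 4 arrays, each centred on its mean, the genes nearest to the brightest Pdk1 probe set were Atp7b, Ms4a3 and Sez6l (distances 0.12, 0.17 and 0.17). Nearest to Pdk4 were Eno2, Etv4 and Srrm1 (0.06 each), nearest to Pdk2 were Zfp119b, Mrm2 and Zfp869 (0.05 each), and nearest to Pdk3 were Cog4, Zdhhc15 and Prkra (0.01, 0.02 and 0.02). With 4 arrays a profile has few degrees of freedom, and such nearness says nothing of shared function.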

How the data were processed

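RNA from 4 kidney pools was made into biotinylated cRNA for Affymetrix arrays, per the labels' protocols. The authors deposited intensity values on a linear scale, 1 per probe set and array, each array scaled to a mean of 250 after trimming. The submitters' processing notes name RMA, whose output would be logarithmic, so which software made these values is unknown here. The notes give no genome build.

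Zeros were set to 0.1, intensities were turned to log2, and 64 control probe sets and the lowest 40% of the other 45037 by mean log2 (limit 17.3) were left out. Limma 3.58.1 in R 4.3.3 fitted diet over 27022 probe sets (lmFit and eBayes, 2 residual degrees of freedom, prior 3.49), two-sided, with Benjamini-Hochberg adjustment. The fit was also run on simulated arrays with the same spread in both diets. In the real data the log2 gap between pools had an SD over probe sets of 0.504 in the controls and 0.964 under iron deficiency. The simulated run therefore does not show how the fit behaves on these pools. Background is each array's highest of 27 unspiked control probe sets. A gene stands by its probe set with the highest mean log2 signal over both diets.

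The 10 genes and the lists were chosen with earlier results of these data known. Up to 4 genes per pathway list are named, those with the largest difference among genes with separated pools, besides Dld, Pdhx and Pdpr. For each kinase the 3 nearest profiles are named. Symbols come from the platform annotation and promoters from RefSeq, GRCm38.p6. Alternatives were other filters, quantile normalization, median centring, an offset of 16, a floor at background, a replicate block, an intensity trend, array weights and each pool left out. Precision is limited by having 2 arrays per diet.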

Additional observations from a re-analysis of the deposited data

How the results depend on the processing

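The replicate block, intensity trend, array weights, both other filters and 1 probe set per gene leave each difference as it is by construction. The background floor moved none of the 20 differences, because all of these probe sets lay above background on every array. These settings therefore say nothing of the stability of a difference's size. Quantile normalization moved the 20 differences by at most 0.18, median centring by at most 0.2 (Pdk1 to 1.62) and the offset by at most 0.38. Signs turned 15 times, in 6 probe sets of Pdk3, Pdp2, Pdha1, Pdhb and Dlat. Leaving out each pool in turn, differences ranged from 1.23 to 1.62 for Pdk1, -1.56 to -0.16 for Pdk2 and 0.45 to 1.53 for Pdk4.

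With 1 probe set per gene 5 of the 10 genes had separated pools, 3 higher and 2 lower, against 13.1% and 26.0% of all. Pdp1 is among the 3 although its probe sets disagree. Its probe set was chosen by the mean over both diets, which its high iron-deficient signals raised. In the controls the other, 1434228_at, was the brighter (means 122.05 and 84.6), so the direction counted for Pdp1 follows from the choice. Leaving out a pool can only keep or add separated probe sets. The 13 became 15 to 19, with 6 to 9 higher and 8 to 12 lower, while the share of all probe sets went from 36.7% to between 55.5% and 87.5% (the 12 lower, without iron-deficient pool 2, stand beside 52.6%).

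Over all probe sets 0 passed in the fit as described and 1069 lay at an unadjusted p under 0.05. Leaving out each pool in turn gave 0 to 75 by limma (75 without control pool 1, 31 without control pool 2), and 1 probe set per gene gave 13. The pool numbers of the labels mark no stated pairing (the correlation of same-numbered deviations across probe sets was 0.357). With them as a replicate block 479 passed, among them the Pdk1 probe sets 1435836_at and 1434974_at, and it changed no other call among the 10 genes. Without control pool 1, 1434974_at passed too. That fit has 1 control array, assumed to vary like the iron-deficient pools, gives every probe set an SE of 0.84 and removes the gap of 1.36 between the control pools of this probe set. The cause of these changes was not tested. No other setting called a probe set of the 10 genes. Dim probe sets limit what these arrays show.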
